A study of Mus musculus with 6 samples.

Results

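Cytosolic ribosomal proteins are the protein components of the ribosomes that translate nuclear-encoded mRNAs. They were taken here as every gene probe on the array whose accession mapped to a mouse symbol of the form Rpl or Rps followed by a number (with an optional a, x, y or l ending), or Rplp0, Rplp1 and Rplp2, leaving out the Rps6 kinases. This gave 168 of 55681 probes and 83 of 36717 genes, and 81 of these 83 were among the 20906 genes bright enough to test. An accession that mapped to no single symbol counts as a gene in these totals and in every share of all genes. They comprise 45 large-subunit genes, 30 small-subunit genes and 8 paralogues whose symbols end in l or l1. The symbol rule does not take some ribosome proteins, among them Fau, Rpsa, Rack1 and Rpl36al, whose values are given separately.

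RNA came from the gastrocnemius, a calf muscle of mostly fast fibres, of male mice aged 25 months (old, 3 samples), which was set against the same muscle of male mice aged 13 weeks (young, 3 samples). The labels name no strain, treatment or genetic change, and do not say that each sample is a separate animal, so a p-value here reflects only how these samples vary, and some of that may be technical. Each RNA was labelled with Cy3 and hybridised to 1 single-colour Agilent array. All 6 arrays lay on 1 slide. Between 49.9% and 54.8% of gene spots per array were well above background, no such spot was saturated, and precision is limited by having 3 arrays per age. The 8 muscle fibre markers (Acta1, Ckm, Myh4, Myh1, Tnnt3, Mylpf, Actn3 and Pvalb) were all tested, with a summed signal of 4661 to 6316 times the array's 75th percentile in old muscle and 5791 to 7027 times in young muscle. Old replicate 1 and young replicate 3 lay at opposite ends: among the 5227 brightest genes, those above the 75th percentile of mean level, the median gene deviated from its own 6-array mean by -0.13 on old replicate 1 and 0.14 on young replicate 3 (log2), against -0.04 to 0.03 on the other 4 arrays.

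A ribosome joins a small subunit, which reads the mRNA, to a large subunit, which forms the peptide bond and carries a stalk that recruits elongation factors. Ribosomal protein mRNAs are among the most abundant in the cell, and most begin with a tract of pyrimidines that lets the growth-sensing kinase complex mTORC1 set how strongly they are translated. Most members are made in every tissue, but a few have paralogues of restricted use. Rpl3l, found in skeletal muscle and heart, takes the place of Rpl3 in ribosomes of mature fibres, and in mice Rpl3l falls while Rpl3 rises when muscle is loaded to grow. Arrays measure mRNA and not translation.

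Start sites are shown for Rpl3l, Rpl5 and Rps9, whose old and young values did not overlap (none passed the test), and for 4 members whose values did, since a pyrimidine tract at the start is what this family is known for. Each window holds 25 bases before the annotated start and 25 from it on, from RefSeq on GRCm38.p6, 5′ to 3′ on the gene's strand, with the longest run of C and T in capitals. Rpl3l lies at chr17:24727801-24727850 (plus strand), Rpl5 at chr5:107900503-107900552 (plus), Rps9 at chr7:3704016-3704065 (plus), Rps7 at chr12:28635929-28635978 (minus), Rps6 at chr4:86857343-86857392 (minus), Rpl35 at chr2:39005107-39005156 (minus) and Rpl7a at chr2:26910782-26910831 (plus).
Rpl3l: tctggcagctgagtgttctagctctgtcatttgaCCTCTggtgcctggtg
Rpl5: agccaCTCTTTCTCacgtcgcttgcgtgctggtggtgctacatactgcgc
Rps9: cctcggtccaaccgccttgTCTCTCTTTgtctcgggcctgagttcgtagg
Rps7: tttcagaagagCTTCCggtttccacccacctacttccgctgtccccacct
Rps6: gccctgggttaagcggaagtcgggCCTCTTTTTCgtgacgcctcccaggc
Rpl35: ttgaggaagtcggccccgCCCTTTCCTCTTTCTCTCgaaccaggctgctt
Rpl7a: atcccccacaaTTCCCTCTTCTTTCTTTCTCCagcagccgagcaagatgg
The longest run was 5 bases at Rpl3l, which has a second annotated start with a run of 4, against 9 at Rpl5 and Rps9, 5 at Rps7, 10 at Rps6, 18 at Rpl35 and 21 at Rpl7a. The longest run need not lie at the start. In the windows shown, the runs at Rpl5 and Rps7 end before the annotated start and that at Rpl3l begins after it, while the others span it. Rpl7a and Rpl35 were picked for their long runs: the median was 7 over the promoters of large- and small-subunit genes and 5 over all promoters, which the run at Rpl3l equalled. The promoter table had entries for 55 of the 75 large- and small-subunit genes and none for Rpl3.

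Over the 65 promoters of these 55 genes, 31 (47.7%) held a run of at least 8 pyrimidines in that window on the gene's strand, against 19.7% of all 32851 promoters. On the opposite strand the shares were 9.23% and 21.6%. Among the 9 promoters of 7 paralogues, 4 held such a run. The letters CCGGAAG, the core bound by ETS factors such as GABP, were found on either strand within the 250 bases before and 50 after the start in 35.4% of the 65 promoters and 8.86% of all. The letters GCCATNTT, the core bound by YY1, were found there in 23.1% and 6.05%. None of these matches shows that a factor binds, and the motifs were set against no array value.

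Most ribosomal protein genes differed little between old and young muscle, and the 1 that stood out was Rpl3. In limma's test with Benjamini-Hochberg adjustment over all 20906 genes, 0 of the 81 members had an adjusted p under 0.05, against 0.254% of all genes (0.196% higher and 0.0574% lower in old muscle). Without old replicate 1 the member count was again 0, against 0.908% of all genes. At an unadjusted p under 0.05 there was 1, Rpl3, against 14.5% of all genes. The median log2 difference, old minus young, was -0.01 over the 81 genes and -0.06 over all genes, with 38 members above 0 and 43 below, where 56.9% of all genes lay below. Their spread was narrow. The interquartile range of the members was -0.07 to 0.07, against -0.28 to 0.19 for all genes and -0.26 to 0.07 for the 5227 brightest. In size, 70 of 81 differed by less than 0.2, against 41.9% of all genes and 52.5% of the 5227 brightest. Those 5227 do not match the members in brightness. Their median level was 4.94, against 7.89 for members, and 65 of the 75 large- and small-subunit genes lay above the 95th percentile of level. The 95% interval of the difference lay within -1 and 1, that is within 2-fold either way, in 76 of 81 members. The shares were 66.4% for all genes and 83.6% for the 5227 brightest. The exceptions were Rpl3, Rpl21, Rps10, Rpl7l1 and Rps4l.

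**Figure D1:**
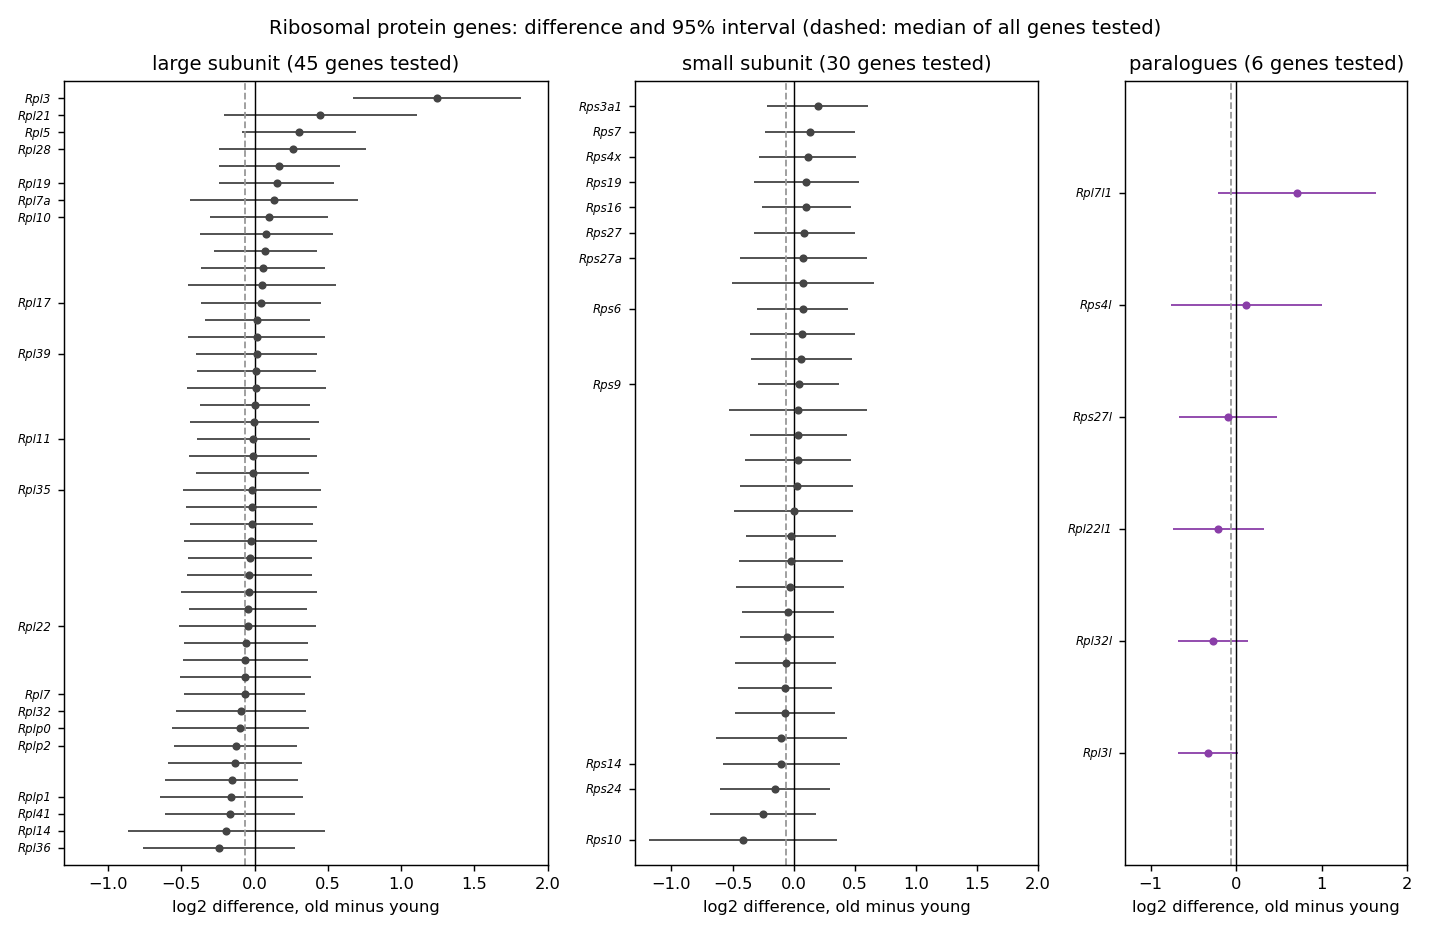
Log2 difference, old minus young, of the 81 ribosomal protein genes tested (points) with 95% intervals from limma (bars), for 45 large-subunit genes, 30 small-subunit genes and 6 paralogues; the dashed line is the median of all genes tested, -0.06, and genes named in the text are labelled. Rpl3, at 1.25, lies apart from the other large-subunit genes, which run from -0.24 to 0.45.

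The common level of the family moved from array to array within each age. The median member lay 0.19 below its own 6-array mean on old replicate 1, and 0.11 and 0.06 above it on old replicates 2 and 3; on young replicates 1, 2 and 3 the values were -0.06, -0.12 and 0.21 (log2). Old replicate 1 was the lowest of the 6 arrays for 46 of 81 members, against 24.3% of all genes and 37.6% of the 5227 brightest. Young replicate 3 was the highest for 57 of 81, against 30.2% of all genes and 39.7% of the 5227 brightest. The 5227 brightest genes, which hold all 75 large- and small-subunit genes, were also lowest on old replicate 1 and highest on young replicate 3, and the part of brightness in these shifts was not tested. The median within-group SD was 0.18 for members, 0.20 for the 5227 brightest genes and 0.28 for all genes.

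**Figure D2:**
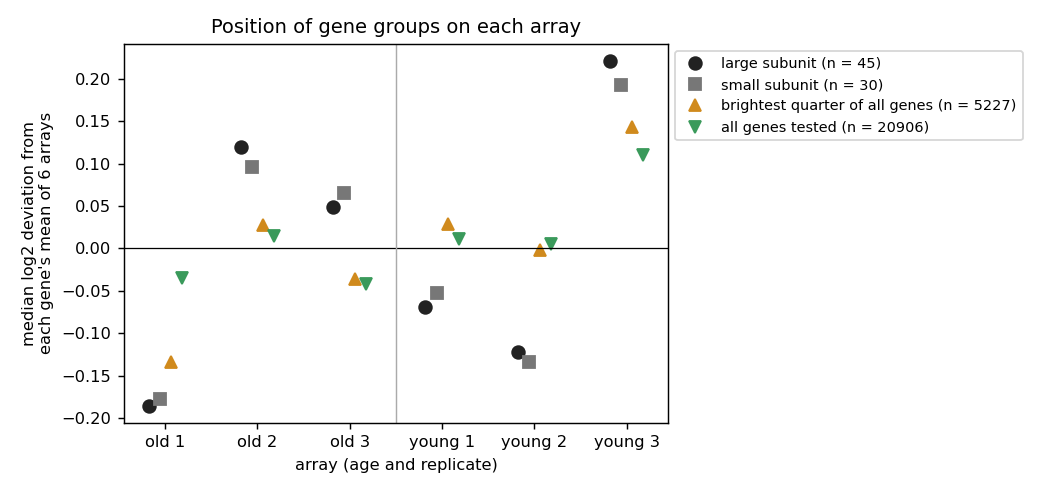
Median log2 deviation from each gene's own mean of 6 arrays, on each array (old replicates 1 to 3 left, young replicates 1 to 3 right), for large-subunit genes, small-subunit genes, the 5227 brightest genes (labelled as a fraction in the legend) and all genes tested. Both subunits lie lowest on old replicate 1 (-0.19 and -0.18) and highest on young replicate 3 (0.22 and 0.19).

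Old and young values did not overlap in 4 of 81 members, against 21.8% of all genes. They were Rpl3, Rpl5 and Rps9, higher in old muscle, and Rpl3l, lower. This count rested on the scaling of the arrays. Quantile normalization raised the members' median to 0.12 and gave 20 such members, all higher in old muscle (24.7% of members, against 21.9% of all genes that did not overlap in either direction), and normexp background correction gave 0.11 and 17, of which 16 were higher (22.1% of all genes in either direction). In the main fit 7.93% of all genes did not overlap with old higher, and that share is not given for the other scalings. Centring each array on its median gave -0.16 and 2 (24.7% of all genes). The median of all genes was then -0.21, beside -0.05 with quantile normalization and -0.03 with normexp. No direction for the family as a whole is therefore given, and 0 members passed the adjusted threshold under any of these settings.

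Rpl3, whose protein reaches towards the peptidyl transferase centre of the large subunit, had the largest difference of the family. Its log2 values relative to the array's 75th percentile were 5.99, 6.25 and 6.80 in old muscle, against 5.13, 4.93 and 5.23 in young muscle. Every old value lay above every young value. The difference was 1.25 ± 0.24 (SE, 3 arrays per age), or 2.37-fold, with a 95% interval of 0.67 to 1.82. Its adjusted p in limma's test was 0.127, above the threshold. The adjusted p ran from 0.0598, without old replicate 1, to 0.343 over the 17 alternative settings.

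Rpl3l, the muscle paralogue, differed the other way. Its values were 7.03, 6.85 and 6.83 in old muscle, against 7.27, 7.26 and 7.17 in young muscle. All 3 old values lay below the young ones, with old replicate 1 the nearest to them. The difference was -0.33 ± 0.15 (SE, 3 arrays per age), with an interval of -0.69 to 0.02 and an adjusted p of 0.372 in limma's test. It was -0.20 with normexp, -0.21 with slide row in the model and -0.22 with quantile normalization. Each of Rpl3 and Rpl3l was represented by 1 probe.

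A ratio within an array is unchanged when a constant is added to all log2 values of that array, and it was formed for the pair. The log2 value of Rpl3l minus that of Rpl3 was 1.04, 0.60 and 0.03 on the old arrays, against 2.14, 2.33 and 1.94 on the young arrays. Its mean was 0.56 ± 0.51 in old muscle and 2.14 ± 0.19 in young muscle (SD, n = 3 each), a difference of -1.58, or a 2.98-fold lower ratio in old muscle. The ages did not overlap, and the exact two-sided permutation test gave p = 0.1, the smallest that 3 against 3 arrays allow. That test could not pass a threshold of 0.05, and the ratio sets no level of one transcript against the other.

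Set against the median of the other 74 large- and small-subunit genes on the same array, with each gene taken as its deviation from its own 6-array mean, Rpl3 lay at 0.45, 0.42 and 1.02 on the old arrays, against -0.53, -0.66 and -0.70 on the young arrays. The difference was 1.26 (exact permutation p = 0.1, n = 3 each). Rpl3l on this scale lay at 0.14, -0.33 and -0.29 on the old arrays, against 0.27, 0.31 and -0.11 on the young arrays. Here the ages overlapped, with a difference of -0.32 (exact permutation p = 0.2, n = 3 each). The separation of the ages was thus kept by Rpl3 and lost by Rpl3l when the family's own array-to-array shift was removed.

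**Figure D3:**
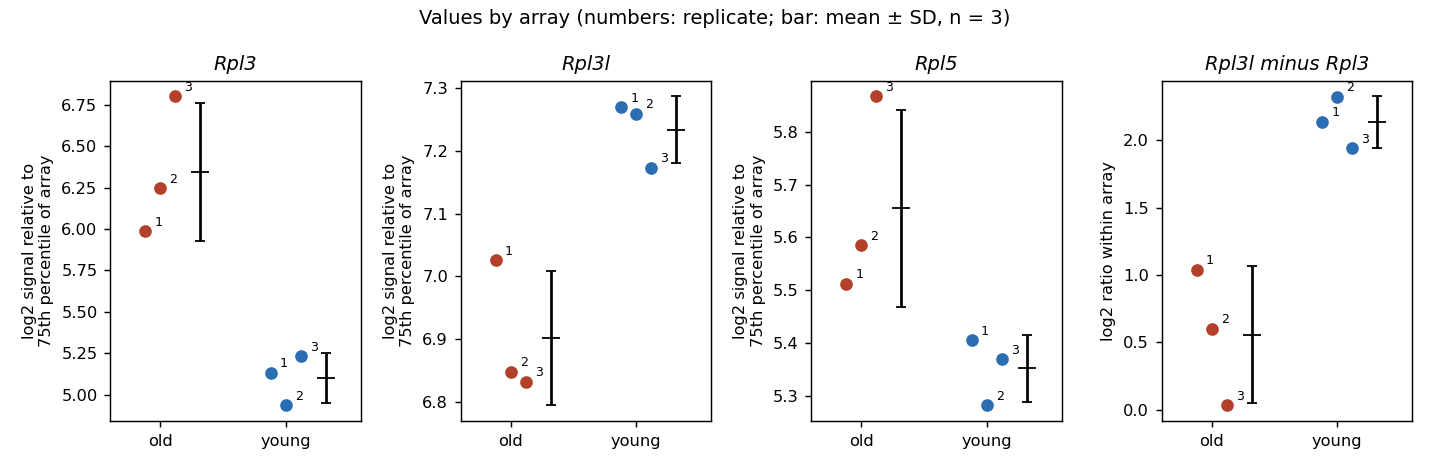
Log2 signal relative to the array's 75th percentile of Rpl3, Rpl3l and Rpl5, and the within-array log2 ratio of Rpl3l to Rpl3, on the 3 old (left) and 3 young (right) arrays; numbers are replicates and bars are mean ± SD (n = 3). Rpl3 lies at 5.99 to 6.80 in old and 4.93 to 5.23 in young muscle, and the ratio at 0.03 to 1.04 in old and 1.94 to 2.33 in young muscle. Each panel has its own vertical range.

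Marker lists of other cell types were read on the same arrays. Neutrophil genes were the only list with members past the adjusted threshold: S100a8 and S100a9, which form the calprotectin complex of neutrophils, rose in old muscle by 4.80 ± 0.31 and 4.70 ± 0.30 (adjusted p = 0.00603 for each in limma's test). Of the 6 genes on that list 4 were tested, with 3 above 0, while Camp lay the other way at -0.40 ± 0.15. No array had Ngp well above background. The summed signal of the 4 was 16.5 to 24.6 times the 75th percentile in old muscle and 0.837 to 1.39 times in young muscle. Red cell genes had 4 of 4 tested below 0, with a median of -1.14 and a summed signal of 52.9 to 112 in old muscle and 147 to 226 in young muscle, and 0 were called. Nearly all of that sum was Hba-a1, with mean log2 values of 6.31 in old and 7.50 in young muscle. Of the list of satellite cell and regenerating fibre markers, 4 of 6 tested were above 0 and 0 were called, and in 3 the ages did not overlap, all higher in old muscle, against 7.93% of all genes in that direction. Myogenin (Myog), a factor of muscle differentiation, lay at 1.12, 2.20 and 3.39 in old muscle, against -0.52, -0.22 and 0.04 in young muscle (2.47 ± 0.54, adjusted p = 0.149). On the old arrays Rpl3 and Myog had the same order, lowest on replicate 1 and highest on replicate 3. On the young arrays, where Rpl3 lay at 5.13, 4.93 and 5.23, their orders differed. A link between these 2 genes was not tested. Embryonic myosin Myh3 had another order on the old arrays. It lay at 2.77, 2.07 and 1.87 in old muscle, against 0.30, 0.52 and 0.89 in young muscle. The satellite cell factor Pax7 had a difference of -0.02, and no array had Myf5 well above background. The summed signal of this list was 497 to 675 times the 75th percentile in old muscle and 588 to 766 times in young muscle. Nearly all of it was Myh8, with mean log2 values of 9.20 in old and 9.38 in young muscle (-0.18 ± 0.19). No other member tested had a mean above 2.37 at either age, so the sum says little about them.

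Of the macrophage list, 8 of 9 markers tested were above 0 and 0 were called, and in 8 the ages did not overlap with old higher, against 7.93% of all genes. The list had a summed signal of 34.7 to 41.5 in old muscle and 27.7 to 30.3 in young muscle, and no array had Cd163 well above background. The part of any of these cell types in the values of Rpl3 and Rpl3l was not tested. In whole muscle, fewer cells of a type and less RNA per cell cannot be told apart. The fibroblast list had a summed signal of 165 to 327 in old muscle and 368 to 423 in young muscle, with 5 of 5 markers below 0. Most of that sum was Dcn, with mean log2 values of 7.57 in old and 8.43 in young muscle. Of the 5 markers 0 were called, and in 3 the ages did not overlap with old lower, against 13.9% of all genes.

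The large-subunit genes had a median difference of -0.01, with 19 above 0 and 26 below. After Rpl3 the highest values were 0.45 ± 0.28 for Rpl21, 0.30 ± 0.16 for Rpl5, which carries the 5S rRNA into the ribosome and can bind the p53 regulator Mdm2, and 0.26 ± 0.21 for Rpl28. Rpl5 lay at 5.51, 5.59 and 5.87 in old muscle, against 5.41, 5.28 and 5.37 in young muscle. Its ages were separated by a narrow gap, its interval was -0.09 to 0.69 and its adjusted p was 0.443 in limma's test. Rpl11, the partner of Rpl5 in the 5S rRNA particle, had a difference of -0.01. Rpl19 had 0.15 ± 0.16. The lowest values were -0.24 ± 0.22 for Rpl36, -0.19 ± 0.28 for Rpl14, -0.17 ± 0.19 for Rpl41 and -0.16 ± 0.21 for Rplp1. Their adjusted p ran from 0.638 to 0.780.

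The stalk genes were all slightly below 0. Rplp1 lay at 8.20, 8.58 and 8.46 in old muscle, against 8.42, 8.39 and 8.89 in young muscle, and the ages overlapped. Rplp2 and Rplp0, the base on which the stalk dimers sit, had differences of -0.13 ± 0.18 and -0.10 ± 0.20. The brightest member probe was that of Rpl10, a late-joining protein that allows the subunits to come together, with 9.38, 9.65 and 9.70 in old muscle against 9.41, 9.38 and 9.63 in young muscle (0.10 ± 0.17).

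The small-subunit genes had a median difference of 0.03, with 17 above 0 and 13 below, and no member beyond 0.5 in size. Rps10 had the lowest value, -0.41 ± 0.32, from 7.43, 8.59 and 8.21 in old muscle against 8.36, 8.27 and 8.83 in young muscle. That value rested largely on old replicate 1, the lowest of the 6 arrays. Rps24 had -0.15 ± 0.19 and Rps14 had -0.10 ± 0.20. The highest were Rps3a1 at 0.20 ± 0.17, Rps7 at 0.14 ± 0.16, Rps4x at 0.12 ± 0.17, Rps19 at 0.10 ± 0.18 and Rps16 at 0.10 ± 0.15. The adjusted p of these 5 ran from 0.630 to 0.813.

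Rps6, the ribosomal protein that S6 kinases phosphorylate downstream of mTORC1, lay at 7.33, 7.46 and 7.57 in old muscle, against 7.36, 7.29 and 7.50 in young muscle (0.07 ± 0.16). Rps27a, made as a fusion with ubiquitin, had 0.08 ± 0.22. Rps9 was separated between the ages by values of 8.19, 8.19 and 8.16 in old muscle against 8.14, 8.12 and 8.15 in young muscle. That difference was only 0.04 ± 0.14 and its adjusted p was 0.906 in limma's test.

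Of the 8 paralogues, 6 were tested. Rpl10l and Rpl39l, which are made mainly in testis, stayed below that detection limit on all 6 arrays. Rpl22l1 had -0.21 ± 0.22, beside -0.05 ± 0.20 for its partner Rpl22. Rps27l, a p53 target, had -0.10 ± 0.24, beside 0.09 ± 0.17 for Rps27. Rpl32l had -0.27 ± 0.17 and Rpl32 -0.09 ± 0.19. Rpl7l1 had the widest interval, -0.22 to 1.64, from -0.91, -0.60 and -0.50 in old muscle against -0.65, -1.25 and -2.23 in young muscle, and its young replicates spread more than its old ones. Its partner Rpl7 had -0.07 ± 0.17. Rps4l had 0.12 ± 0.37 and Rps4x, its partner, is given above. Rpl39 had 0.01 ± 0.17. Ribosomal protein genes have many processed pseudogenes and near-identical copies, so a probe may read more than its named transcript.

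Different probes of a gene mostly gave like values. Of the 81 genes, 31 had 1 kept probe and 50 had more, 164 kept probes in all. The probes of a gene differed by 0.5 or less in log2 difference in 43 of these 50 genes, with a median gap of 0.15. In a fit over every kept probe, 0 of the 164 passed the adjusted threshold, against 0.268% of all probes. At an unadjusted p under 0.05 there were 3, against 14.5% of all genes in the fit by gene. Among the 3 were the Rpl3 probe and the dimmest kept probe of Rplp0. The gap was over 1 in 4 genes, of which 3 are described. The probes of Rpl7a ran from -0.76 to 0.92, those of Rplp0 from -1.31 to 0.02 and those of Rpl17 from -0.07 to 1.08. The brightest probe gave 0.13 for Rpl7a, -0.10 for Rplp0 and 0.04 for Rpl17.

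Ribosome proteins outside the symbol rule also had small differences. Rpsa, Rack1 and Fau had -0.06 ± 0.17, 0.04 ± 0.17 and 0.01 ± 0.17, and Rpl36al had 0.03 ± 0.26. Old and young values overlapped in all 4.

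Most genes that help to build ribosomes had a difference above 0, though none passed the test. In the list of ribosome assembly factors, 34 of 36 genes tested had a difference above 0, against 9010 of all 20906 genes. The list had a median of 0.23 and a range from -0.12 to 1.11. In 8 of 36 the ages did not overlap, all higher in old muscle, against 7.93% of all genes in that direction. In limma's test 0 passed the adjusted threshold. At an unadjusted p under 0.05 there were 3, all higher, against 1268 of all 20906 genes higher. Nolc1, a nucleolar chaperone, lay at 3.15, 2.96 and 3.61 in old muscle, against 2.62, 2.56 and 2.35 in young muscle (0.73 ± 0.21, adjusted p = 0.225). Wdr43, of the small-subunit processome, had 0.69 ± 0.28, and Rrp12, an export factor of pre-ribosomes, 0.53 ± 0.20. Fibrillarin (Fbl), the methyltransferase of ribosomal RNA, also separated the ages, at 2.44, 2.34 and 2.75 in old muscle against 2.16, 2.19 and 2.17 in young muscle (0.33 ± 0.17). The median of this list was 0.084 with median centring and 0.094 with the slide row as a block. The number of its genes above 0 was then 26 and 25. The medians of all genes were then -0.21 and -0.07. Whether this list differs from the ribosomal proteins was not tested, and the 2 sets differ in brightness, with a median level of 3.27 for assembly genes and 7.89 for ribosomal proteins.

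RNA polymerase I and its factors, which transcribe ribosomal RNA, had a median of -0.03 over 19 genes, with 9 above 0. The 3 with the lowest p were Taf1b (0.78 ± 0.27), Polr1e (0.67 ± 0.25) and Cd3eap (0.39 ± 0.16), each separated and higher in old muscle. Their adjusted p ran from 0.278 to 0.344 in limma's test, and 0 of the 19 passed the threshold. In 4 of 19 the ages did not overlap, all higher in old muscle, against 7.93% of all genes in that direction. At an unadjusted p under 0.05 there were 3, all higher, against 1268 of all 20906 genes higher. Elongation factors and other mRNAs with a pyrimidine start tract had a median of 0.01 over 17 genes, and 1 of them, Npm1, is also in the assembly list. Eef1a1, the elongation factor that brings tRNAs to the ribosome, lay at 5.41, 5.05 and 5.37 in old muscle, against 4.81, 4.65 and 4.52 in young muscle (0.62 ± 0.18, adjusted p = 0.221). Vim had -0.38 ± 0.19 and Nap1l1 0.34 ± 0.18. In this list and in the next, 0 genes passed the adjusted threshold. In each, 1 had an unadjusted p under 0.05, against 14.5% of all genes.

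Among regulators of ribosome production, 14 were tested, with a median of 0.00. Myc, which drives transcription of ribosome genes in growing cells, lay at -0.16, -0.01 and 1.50 in old muscle, against -1.05, -1.12 and -1.36 in young muscle. The ages did not overlap, and old replicate 3 lay well above the other old arrays. Its difference was 1.62 ± 0.43 (adjusted p = 0.196). Tsc2 and Eif4ebp1 came next by p with 0.53 ± 0.25 and 0.47 ± 0.25. Larp1, which binds pyrimidine start tracts, had -0.02 ± 0.15.

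Mitochondrial ribosomal proteins were taken by symbol alone, Mrpl or Mrps and a number, and most belong to the separate ribosome inside mitochondria. They lay below 0 in 53 of 76 genes tested, with a median of -0.15. Of all genes 56.9% lay below 0, as did 3397 of the 5227 brightest, whose median was -0.10. The list had a median level of 5.03, against 4.94 for those 5227. In 18 of the 76 the ages did not overlap with old lower, against 13.9% of all genes and 979 of the 5227 brightest. In 1 they did not overlap with old higher. Again 0 passed the adjusted threshold in limma's test. At an unadjusted p under 0.05 there were 6, all lower, against 1753 of all 20906 genes lower. Mrps28 lay at 5.78, 5.89 and 5.85 in old muscle, against 6.48, 6.36 and 6.63 in young muscle (-0.65 ± 0.15, adjusted p = 0.163). Mrps10 had -0.49 ± 0.18. Mrps36, listed for its symbol and not checked as a part of the mitochondrial ribosome, had -0.46 ± 0.17. The median of the list was -0.30 with median centring and -0.060 with normexp, where the medians of all genes were -0.21 and -0.03.

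**Figure D4:**
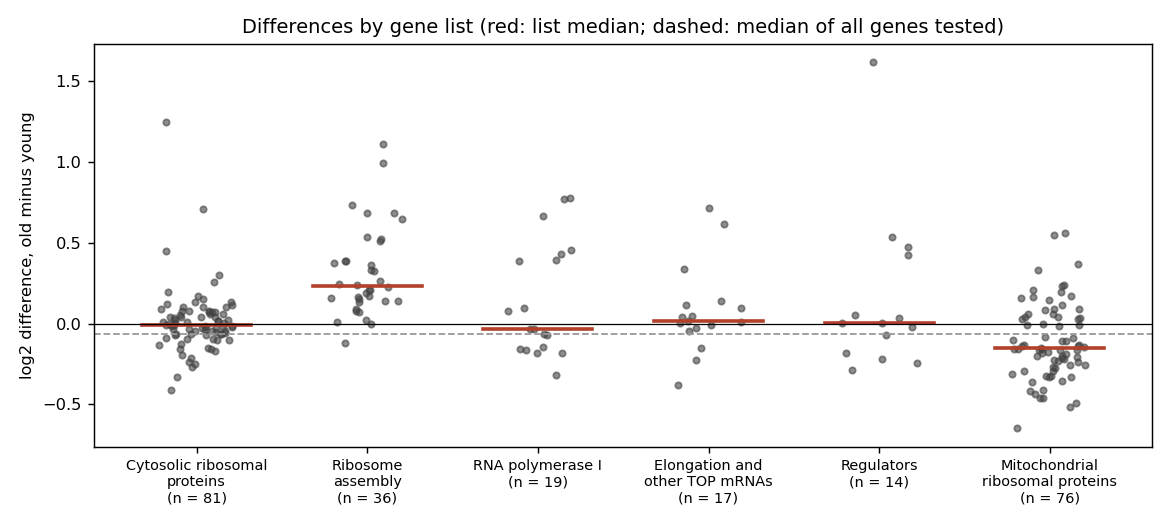
Log2 difference, old minus young, of each gene tested (points) in the cytosolic ribosomal protein family and 5 related lists; red lines are list medians and the dashed line is the median of all genes tested, -0.06. TOP mRNAs are those with a pyrimidine start tract. The 81 ribosomal protein genes centre on -0.01 with Rpl3 at 1.25, while 34 of 36 assembly genes lie above 0 and 53 of 76 mitochondrial ribosomal protein genes below.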

How the data were processed

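Each deposited scanner file gives spot intensity after the background and trend correction of Agilent's Feature Extraction 11.0.1.1, per the file headers, whereas version 9.5 is named in the submitters' processing notes. The authors' deposited value table holds that intensity as a rounded percentage of each array's 75th percentile (62976 of 62976 values per array within 0.51). It was used as an alternative.

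Control and flagged spots (161 to 212 per array) were left out, log2 processed signals were averaged per probe, and each array's 75th percentile over probes was subtracted. Of 55681 probes, 28331 matched RefSeq (GRCm38.p6) by accession. The other 27350 were grouped by their own accession, each counted as a gene. With RefSeq mRNA accessions (NM_) only, 13424 genes were tested. The ages then did not overlap in 5% of members and 23.6% of all genes. A probe was kept if 3 or more of 6 arrays had it well above background, and the brightest kept probe stood for its gene. The ages were set against each other with limma 3.58.1 in R 4.3.3 over all 20906 genes, with Benjamini-Hochberg adjustment. Single ratios were tested by exact permutation. Python 3.11.15, pandas 2.3.3 and matplotlib 3.10.9 made tables and figures.

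The members, lists and named genes were chosen with earlier results of these data known. Named were paralogues and partners, in each subunit the 8 lowest p and the 4 highest and lowest differences, stalk genes, genes whose probes differ by over 1, and 3 per related list. Rps6, Rpl11, Rps9, Rpl32, Rpl36al, Npm1, Fbl, Larp1 and the sequences shown were added after their values were seen where that rule did not take them, as were markers named singly. A few genes that the rule takes are not reported here. Normexp (offset 50) used median signals in place of the planned mean signals. In a simulation of old against young over 20898 genes, 32% of genes changed by a log2 difference of 1 were recovered and 64% of those changed by 2.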

Additional observations from a re-analysis of the deposited data

How the results depend on the processing

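Under 17 alternatives, and with every probe as its own row, 0 ribosomal protein genes passed the adjusted threshold. Rpl3 stayed above 0 in all 17, from 0.89 to 1.49, and Rpl3l below 0, from -0.48 to -0.20. Rpl3l was -0.22 with quantile normalization, -0.48 with median centring and -0.20 with normexp. With slide row in the model, a fit in which the age difference rests on old replicate 1, the only old array beside young ones, Rpl3 was 0.89, Rpl3l -0.21, their ratio -1.09, the median of all members -0.20, that of small-subunit genes -0.20 and that of assembly genes 0.094. The number of members whose ages did not overlap was 20 with quantile normalization (24.7% of members against 21.9% of all genes), 2 with median centring (2.47% against 24.7%), 17 with normexp (21.0% against 22.1%) and 9 with the mean of probes (11.1% against 21.8%), beside 4 as reported (4.94% against 21.8%). Leaving out 1 array gave 5 to 12, with fewer values to separate (6.17% to 14.8% of members, against 26.4% to 38.5% of all genes). The assembly median was 0.084 with median centring, and the mitochondrial ribosomal median -0.30 with median centring and -0.060 with normexp. Leaving out each array gave 1.02 to 1.42 for Rpl3, -0.39 to -0.30 for Rpl3l, -1.82 to -1.31 for their ratio and -0.08 to 0.09 for the members' median. Median centring adds 1 constant to each array, so it moved the log2 differences alike and left the ratio at -1.58. The median of all genes was then -0.21. The cause of the other shifts was not tested. Replicate numbers are shared between the ages, but the labels do not say that they pair samples, and the main fit used no block. The deviations of same-numbered samples correlated at -0.06, -0.27 and 0.03, against -0.21 to 0.35 for differently numbered ones. So few values cannot show whether the samples are paired. With the replicate block, the number of all genes called was 5 against 53, Rpl3 was 1.25 (adjusted p = 0.212) and 0 members passed. Alternatives for the related lists and for non-overlapping members were chosen after seeing the data. The number of arrays limits what could be detected.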
